A study of Mus musculus with 12 samples.

Results

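The replication-dependent histone genes encode the bulk histones that package newly made DNA. They were taken as the protein-coding genes of the deposited count table whose symbols begin with Hist1h, Hist2h, Hist3h or Hist4h. This gave 67 genes of the 21950 protein-coding genes and 52550 annotated genes in the table. Of these, 58 passed the filter on low counts and were tested together with all 15885 protein-coding genes that passed. The 67 genes comprised 6 genes of the linker histone H1, 18 of H2A, 18 of H2B, 12 of H3 and 13 of H4, and 54 of them lie in the Hist1 cluster on chromosome 13.

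RNA was sequenced from whole lung of C57BL/6J mice at postnatal day 5, in 4 groups of 3 mice with 1 library per mouse. Wild-type (WT) mice and Adm+/- mice, which keep 1 functional copy of the gene for the vasodilator peptide adrenomedullin in every cell of the body, received intraperitoneal Escherichia coli O55:B5 lipopolysaccharide (LPS) at 6 mg/kg or an equal volume of PBS. The injections were given on 3 successive days and lungs were taken 6 h after the last. The libraries were depleted of ribosomal RNA and not selected for poly(A) tails.

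Replication-dependent histone genes lack introns, and their mRNAs end in a short conserved stem-loop in place of a poly(A) tail. The stem-loop binding protein, encoded by Slbp, holds this hairpin, and the U7 small nuclear ribonucleoprotein, which contains Lsm10 and Lsm11, directs the cut behind it. Npat switches on their transcription as cells enter S phase, so that histones are made while DNA is copied. H2A, H2B, H3 and H4 form the nucleosome core, and H1 binds the linker DNA between nucleosomes. Replacement variants such as H3f3a, H3f3b and H2afz are made outside S phase as well and have ordinary polyadenylated mRNAs. The neonatal lung still grows by cell division.

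The stem-loop is shown because it sets these RNAs apart from other mRNAs in how they are captured and counted. A hairpin of 16 bases in 1 of 4 forms was found in Gencode transcripts (build mm10) of 36 genes, which is 69.2% of the 52 histone genes with more than 30 annotated bases after the stop codon. The search used a fixed pattern behind the stop codon, so a gene without a match may carry another form of hairpin. The form of Hist1h1c was in 26 genes, that of Hist1h4d in 7, that of Hist1h4i in 2 and that of Hist2h2ac in 1. Among 21819 other protein-coding genes with a transcript in that annotation, searched over the whole transcript, the pattern was in 2 (0.009%), H2bfm and Trim17. Trim17 overlaps Hist3h2a. The sequences below read 5′ to 3′ along the RNA, with the hairpin in capitals and 5 flanking bases on each side.
Hist1h1c, chr13:23739512-23739527, plus strand: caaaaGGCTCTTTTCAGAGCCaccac
Hist3h2ba, chr11:58949349-58949364, plus strand: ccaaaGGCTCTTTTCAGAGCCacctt
Hist1h4d, chr13:23581950-23581965, plus strand: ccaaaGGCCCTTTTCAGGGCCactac
Hist1h4i, chr13:22040966-22040981, minus strand: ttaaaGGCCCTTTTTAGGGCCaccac
Hist2h2ac, chr3:96220418-96220433, minus strand: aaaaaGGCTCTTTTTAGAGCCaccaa
The coordinates are those of the hairpin. It began 24 bases after the stop codon in Hist1h1c and 28 bases after it in Hist3h2ba.

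Promoter stretches are shown for 1 or 2 genes each of H1, H4 and H2B, because histone classes carry different upstream elements. RefSeq promoters (GRCm38.p6) were matched for 62 of the 67 genes, and the 250 bases before the start were searched on both strands for 5 strings. CCAAT was in 82.3% of the matched histone promoters and in 34.5% of all 27025 promoters. TATAAA was in 46.8% against 13%, the octamer ATTTGCAT in 21.0% against 1.6%, GGTCCG in 17.7% against 6.8% and AAACACA in 14.5% against 6.2%. Some strings differed in frequency between classes, while TATAAA was in 38.9% to 66.7% of each. AAACACA was in 5 of 6 H1 promoters, all but that of Hist1h1a, and in 2 H2A and 2 H2B promoters. GGTCCG was in 9 of 12 H4 promoters, 1 H2B and 1 H3 promoter, and the octamer in 7 of 18 H2A and 6 of 16 H2B promoters but in no H1, H3 or H4 promoter. The 150 bases before the RefSeq start follow, with matches in capitals on either strand. A match describes the sequence and does not show that a factor binds.
Hist1h1a, chr13:23763518-23763667, plus strand: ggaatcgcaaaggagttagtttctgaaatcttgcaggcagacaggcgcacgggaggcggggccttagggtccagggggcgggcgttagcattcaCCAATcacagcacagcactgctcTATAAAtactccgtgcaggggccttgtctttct
Hist1h1b, chr13:21780626-21780775, minus strand: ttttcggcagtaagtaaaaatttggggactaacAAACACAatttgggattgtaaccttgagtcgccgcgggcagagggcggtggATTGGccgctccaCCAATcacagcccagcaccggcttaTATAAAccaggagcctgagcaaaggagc
Hist1h4d, chr13:23581418-23581567, plus strand: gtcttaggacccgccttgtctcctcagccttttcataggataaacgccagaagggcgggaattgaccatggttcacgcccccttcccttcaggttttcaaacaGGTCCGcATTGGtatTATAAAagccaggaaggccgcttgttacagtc
Hist1h2bg, chr13:23571250-23571399, plus strand: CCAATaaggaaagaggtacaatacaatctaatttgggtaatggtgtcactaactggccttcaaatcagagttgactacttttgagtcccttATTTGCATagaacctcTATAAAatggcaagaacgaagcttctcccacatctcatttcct
Hist3h2ba, chr11:58948761-58948910, plus strand: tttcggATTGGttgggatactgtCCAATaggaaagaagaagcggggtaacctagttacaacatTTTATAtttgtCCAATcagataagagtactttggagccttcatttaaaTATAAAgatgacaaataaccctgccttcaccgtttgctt

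Total counts were 22382535 to 38062873 per library, with a median of 28494877. In these counts Adm itself was low. It lay at 3.96 to 7.08 CPM (the count scaled to library size, by protein-coding counts and TMM factors) in WT PBS and at 2.87 to 4.58 in Adm+/- PBS, and at 4.46 to 8.15 in WT LPS and 3.74 to 6.28 in Adm+/- LPS. The genotypes overlapped under both treatments, and the log2 fold changes of -0.50 and -0.55 were not past the threshold (edgeR adjusted p = 0.999 and 0.48). The first was -0.21 without WT PBS replicate 4. WT PBS replicate 5 and Adm+/- PBS replicate 6 stood apart. Reads of Gm26917, a non-coding RNA, were 16.6% and 13.3% of their totals, with 5.42% to 7.40% elsewhere. Values without these libraries stand beside many of the results below.

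Histone RNA made up a visible part of the lung transcriptome. The 67 genes together took 64386 to 121153 counts per library. Their summed level was 3830, 4691 and 5886 CPM in WT PBS replicates 3, 4 and 5 and 2500, 3945 and 2810 CPM in WT LPS replicates 9, 10 and 11. In Adm+/- mice it was 5991, 4092 and 3956 CPM in PBS replicates 6, 7 and 8 and 2407, 4156 and 3253 CPM in LPS replicates 1, 2 and 12. The sums were lower on average after LPS, but the groups overlapped in both genotypes, with 1 LPS library in each genotype among the PBS libraries. The group means were 4802 ± 1033 (SD, n = 3) against 3085 ± 761 CPM in WT and 4680 ± 1138 against 3272 ± 875 CPM in Adm+/-. Leaving out WT PBS replicate 5 gave 4284 against 3096 CPM in WT, and leaving out Adm+/- PBS replicate 6 gave 4046 against 3273 CPM in Adm+/-.

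**Figure D1:**
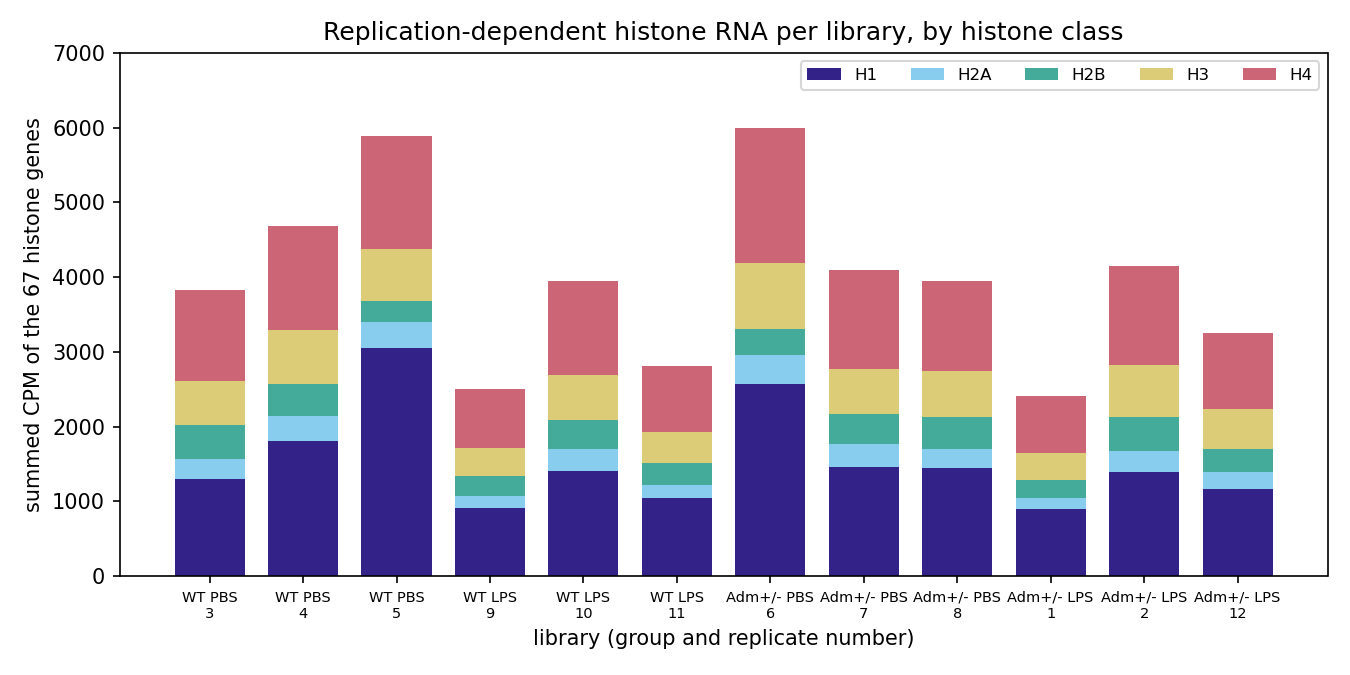
Bars give the summed CPM of the 67 replication-dependent histone genes in each of the 12 libraries, stacked by histone class, with group and replicate number on the horizontal axis. WT LPS replicate 10 and Adm+/- LPS replicate 2, at 3945 and 4156 CPM, are above 1 and 3 of the 6 PBS libraries, and the 2 tallest bars are WT PBS replicate 5 and Adm+/- PBS replicate 6.

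The proportions of the classes were steady except in those 2 PBS libraries. H1 took 33.6% to 38.4% of summed histone CPM in 10 libraries, but 52.0% in WT PBS replicate 5 and 43% in Adm+/- PBS replicate 6. H2B took 9.38% to 11.7% in the 10 and only 4.71% and 5.69% in the 2. H4 took 29.7% to 32.1% and H3 14.8% to 16.9% in the 10. The library that was highest in H1 was thus also the lowest in H2B, and the part of Gm26917 or of RNA quality in this was not tested. In bulk lung, fewer dividing cells and less histone RNA per cell cannot be told apart.

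Per length, single genes of 1 class differed widely. The highest mean levels over the 12 libraries, in CPM per kb of annotated transcript, were 386 for the linker histone gene Hist1h1c, 377 for Hist1h4f, 376 for Hist1h4k, 372 for Hist1h4h, 289 for both Hist1h4d and Hist1h1a, and 226 for both Hist1h1b and Hist1h3e. Thus 4 of the leading 8 were H4 genes, 3 were H1 genes and 1 was an H3 gene. The class medians per length were 203 CPM per kb for H1, 67.6 for H4, 60.2 for H3, 45.1 for H2B and 11 for H2A. The classes also differed in the share of 50-base windows found in transcripts of another gene, on either strand. Genes overlapping at the same place count as other genes here, so this share is not sequence identity alone. Its median was 1.15% for H1, 39.5% for H4, 46.9% for H2B, 61.95% for H3 and 73% for H2A. The part of this share in the order of levels was not tested. H2A and H2B genes sit head to head in 12 pairs whose starts are 176 to 306 bases apart, and the levels counted for partners were not always equal. Hist1h2ak and Hist1h2bn stood at 153 and 110 CPM per kb, and Hist1h2ag and Hist1h2bj at 51.3 and 45.1. By contrast Hist1h2ah was at 6.80 and its partner Hist1h2bk at 53.5, and Hist2h2ac was at 109 while Hist2h2be was at 2.26. Hist1h2ah shared 92.1% of its windows and Hist1h2bk 74.2%, while Hist2h2ac shared 55% and Hist2h2be none. Hist2h2be has an annotated length of 2620 bases against 520 for Hist2h2ac, and levels per kb depend on that length.

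**Figure D2:**
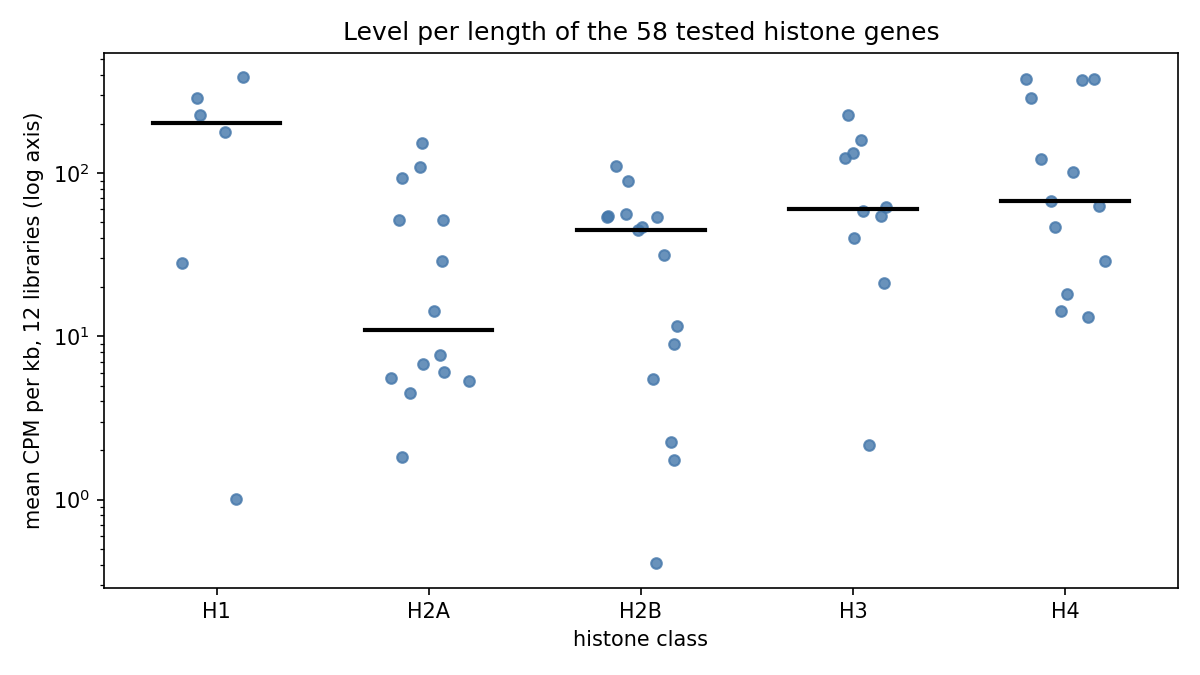
Points give the mean CPM per kb of annotated transcript over 12 libraries for each of the 58 tested histone genes, by class and on a log axis, and lines give class medians. H2A has the lowest median, 11 CPM per kb, and 4 H4 genes lie at 289 CPM per kb or above.

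Shared sequence and overlapping genes can limit what is counted. The 9 genes that failed the filter included 6 listed at 0 in every library. Of these, Hist2h2aa1, Hist2h2aa2, Hist2h3b, Hist2h3c1 and Hist2h2bb share every window of 50 bases with transcripts of another gene. Such a gene can be a copy elsewhere or one that overlaps at the same place, on either strand. Their reads may thus not be assigned to a single gene, and a count of 0 does not show that they were silent. How reads with several matches were counted is not given in the sources used here. Hist1h2aa, a testis form of H2A, shared 23.8% of its windows and was also at 0, which allows up to 3 counts in a library, a limit for counting error only since reads carried no molecular identifiers. Its divergent partner Hist1h2ba, a testis form of H2B, had 0 to 4 counts, Hist1h2ap 2 to 11 and Hist1h2br 1 to 5. The 31 tested genes with mostly unique windows had a median LPS log2 fold change of -0.51 in WT and -0.41 in Adm+/-, and the 27 with mostly shared windows had -0.44 and -0.38. Without WT PBS replicate 5 the WT values were -0.47 and -0.55, the other way round. In 21 of the 67 genes an annotated gene on the opposite strand overlaps, and whether counting used strand is not given in the sources used here.

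LPS against PBS in WT mice asked how neonatal inflammation changed these genes. Of 58 tested, 53 had a fitted log2 fold change below 0, against 49.1% of all tested genes, and their median was -0.47 against 0.01. Single genes rarely passed the threshold, an edgeR adjusted p below 0.05 with an absolute log2 fold change above 0.5. It was passed by 1 histone gene (1.72%), Hist1h1a, where 17.6% of all tested genes passed in either direction and 7.09% were lower. At an unadjusted p below 0.05 there were 16 (27.6%, against 36.7% of all genes), and 10 (17.2%) had every LPS library below every PBS library, against 17.9% of all genes. The share of calls was thus below or near the background, and the shared direction rests on the same few libraries. P-values rest on the spread between mice within groups, estimated together over all 12 libraries, so those in WT also draw on the Adm+/- libraries. The median SD between replicates of the tested histone genes was 0.34 on the log2 scale in WT PBS and 0.36 in WT LPS, against 0.29 and 0.17 for all tested genes.

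**Figure D3:**
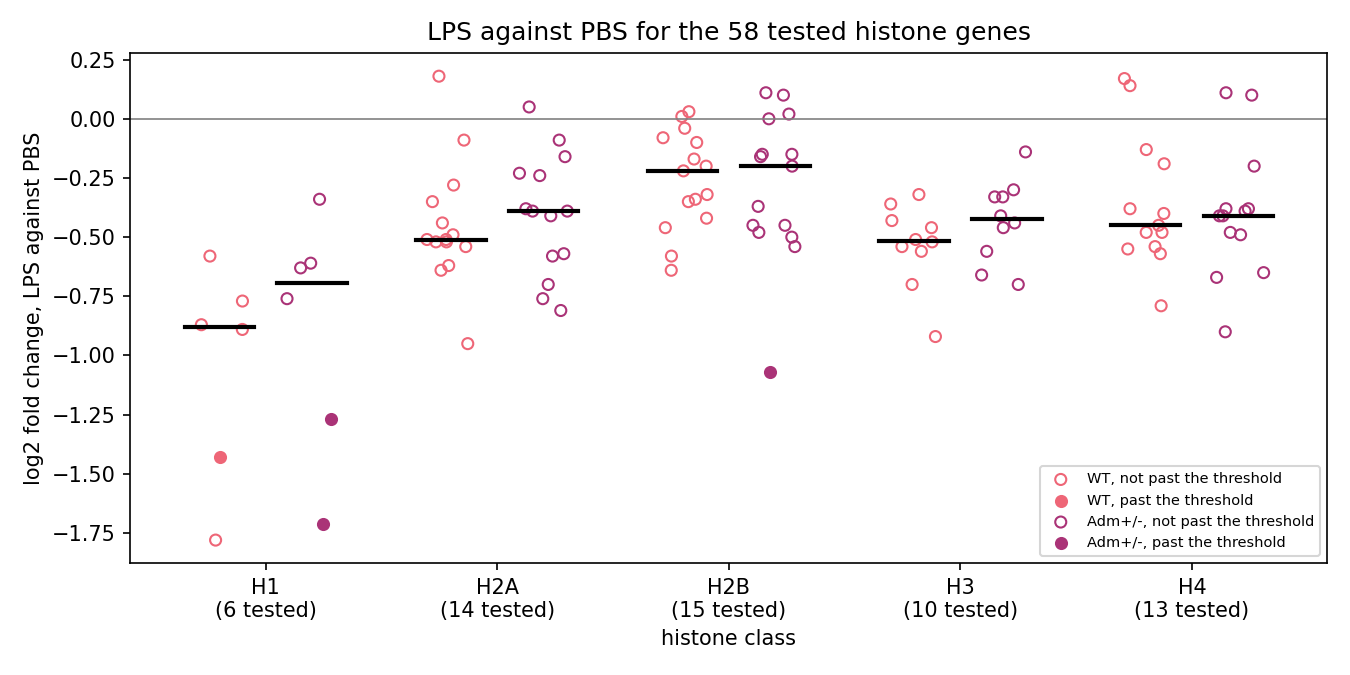
Points give the fitted log2 fold change of LPS against PBS for each of the 58 tested histone genes, by class, in WT and in Adm+/- mice, filled where past the threshold, with class medians as lines. Most points lie below 0, and 1 WT and 3 Adm+/- points are filled. The low H1 medians of -0.88 and -0.69 and the H2B medians of -0.22 and -0.20 rest on WT PBS replicate 5 and Adm+/- PBS replicate 6, and without both of these H1 is at -0.56 and -0.39 and H2B at -0.48 and -0.37.

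The order of the classes rested on 1 library. The median log2 fold change of the 6 H1 genes was -0.88 in WT, and all 6 had an unadjusted p below 0.05, but without WT PBS replicate 5 the H1 median was -0.56. Hist1h1a (ENSMUSG00000049539, chr13:23763666-23764406), a linker histone gene whose transcript shares no window with another gene, was at 195, 266 and 509 CPM in WT PBS replicates 3, 4 and 5. In WT LPS replicates 9, 10 and 11 it was at 84.1, 177 and 99.3 CPM. The groups did not overlap, and it fell by 1.43 on the log2 scale (SE 0.44, edgeR adjusted p = 0.0395). The call needed WT PBS replicate 5: without it the log2 fold change was -0.94 (adjusted p = 0.133). It was also lost without WT LPS replicate 9 (adjusted p = 0.156), WT LPS replicate 11 (0.106) or Adm+/- LPS replicate 12 (0.0571), a library of neither group compared, without which 16103 genes were tested in place of 15885.

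Hist1h1c, the most abundant member per length, stood at 439, 667 and 1344 CPM in WT PBS and at 383, 534 and 419 CPM in WT LPS. The groups overlapped and its log2 fold change of -0.87 (SE 0.37, edgeR adjusted p = 0.114) was not past the threshold. Without WT PBS replicate 5 it was -0.31. Hist1h1e just missed, at -0.58 (SE 0.19, edgeR adjusted p = 0.0508), and was at -0.37 without that library. Hist1h1b had -0.77 (edgeR adjusted p = 0.0805). Hist1h1d had -0.89 (edgeR adjusted p = 0.114), and -0.45 without that library. Hist1h1t, the testis form of H1, had the lowest log2 fold change of all 58, -1.78 (SE 0.60, edgeR adjusted p = 0.0547). It rests on low levels of 0.893 to 2.35 CPM in WT PBS and 0.277 to 0.582 CPM in WT LPS, or 248 counts over all 12 libraries.

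No core histone gene was past the threshold in WT. The median log2 fold changes were -0.51 for 14 H2A genes, -0.52 for 10 H3 genes, -0.45 for 13 H4 genes and -0.22 for 15 H2B genes. Without WT PBS replicate 5 they were -0.60 for H2A, -0.58 for H3, -0.38 for H4 and -0.48 for H2B, so that H1 no longer stood below the core classes and H2B was no longer nearest to 0. Hist1h3a had -0.92 (edgeR adjusted p = 0.0708), Hist1h2ab -0.95 (0.0856), Hist1h4k -0.79 (0.0624) and Hist1h2bc -0.58 (0.0604). Hist1h4d, the H4 gene printed above, was at 306, 366 and 463 CPM in WT PBS and at 212, 323 and 241 CPM in WT LPS. Its groups overlapped through WT LPS replicate 10, and the log2 fold change was -0.55 (SE 0.23, edgeR adjusted p = 0.112). At the other end was Hist3h2a, an H2A gene of the small Hist3 cluster, with a log2 fold change of 0.18 (SE 0.29, edgeR adjusted p = 0.674), which was 0.02 without WT PBS replicate 5. The 16 genes with over 1000 annotated bases had a median of -0.49 in WT and the 42 shorter ones -0.47, and without that library -0.36 and -0.56.

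In Adm+/- mice LPS was followed by a like picture. Of 58 genes, 52 were below 0, against 51.2% of all tested genes, with a median log2 fold change of -0.41 against -0.01. Past the threshold were 3 (5.17%), all lower, against 25.0% of all tested genes in either direction and 12.2% lower. At an unadjusted p below 0.05 there were 11 (19.0%, against 41.8%), and 9 (15.5%) had no overlap between groups and were lower, against 27.1% of all genes. Class medians were -0.69 for H1, -0.42 for H3, -0.41 for H4, -0.39 for H2A and -0.20 for H2B. Without Adm+/- PBS replicate 6 they were -0.40 for H1, -0.26 for H3, -0.29 for H4, -0.37 for H2A and -0.38 for H2B, which no longer sets H1 or H2B apart. The median SD of the histone genes on the log2 scale was 0.30 in Adm+/- PBS and 0.55 in Adm+/- LPS, against 0.19 and 0.12 for all tested genes.

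Hist3h2ba (ENSMUSG00000056895, chr11:58948920-58949533), an H2B gene of the Hist3 cluster and one of the least abundant members per length at 5.50 CPM per kb, had the smallest p. It was at 3.52, 5.37 and 4.05 CPM in Adm+/- PBS replicates 6, 7 and 8 and at 1.79, 2.26 and 2.14 CPM in Adm+/- LPS replicates 1, 2 and 12. The groups did not overlap, and it fell by 1.07 on the log2 scale (SE 0.25, edgeR adjusted p = 0.00731). This call held with each library left out in turn, with log2 fold changes from -1.20 to -0.88, and replicate 2, its highest LPS library, was still below every PBS library. It was lost when the test was made against a fold threshold (adjusted p = 0.0538) and with the DNA replication genes as a covariate (adjusted p = 0.24). In WT mice it was at 4.85, 4.32 and 2.78 CPM in PBS and 2.68, 3.03 and 3.70 CPM in LPS, which overlap, and the log2 fold change was -0.35 (SE 0.24, edgeR adjusted p = 0.31), or -0.55 without WT PBS replicate 5 (edgeR adjusted p = 0.116).

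Hist1h1a also fell in Adm+/- mice. It was at 460, 218 and 195 CPM in PBS and at 78.4, 153 and 131 CPM in LPS, with no overlap, and fell by 1.27 on the log2 scale (SE 0.44, edgeR adjusted p = 0.0466). Without Adm+/- PBS replicate 6 the log2 fold change was -0.78 (adjusted p = 0.208). Hist1h1t fell by 1.71 (SE 0.59, edgeR adjusted p = 0.0466), from 2.0, 1.05 and 1.27 CPM in PBS to 0.374, 0.838 and 0.107 CPM in LPS. Both calls were near the threshold, and leaving out 1 library at a time ended them in 7 and 9 of 12 fits.

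Not past the threshold were Hist1h2bc at -0.54 (edgeR adjusted p = 0.0594), Hist1h4h at -0.65 (0.0678), Hist4h4, the lone Hist4 gene, at -0.41 (0.0755) and Hist1h4i at -0.90 (0.0804). Without Adm+/- PBS replicate 6 Hist4h4 was at -0.23 and Hist1h4i at -0.50. Hist1h4d was at 520, 358 and 308 CPM in Adm+/- PBS and at 230, 340 and 276 CPM in Adm+/- LPS. These groups overlapped through replicate 2, with a log2 fold change of -0.49 (SE 0.23, edgeR adjusted p = 0.137), or -0.25 without Adm+/- PBS replicate 6. Hist1h1c had -0.63 (edgeR adjusted p = 0.224), or -0.22 without that library.

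**Figure D4:**
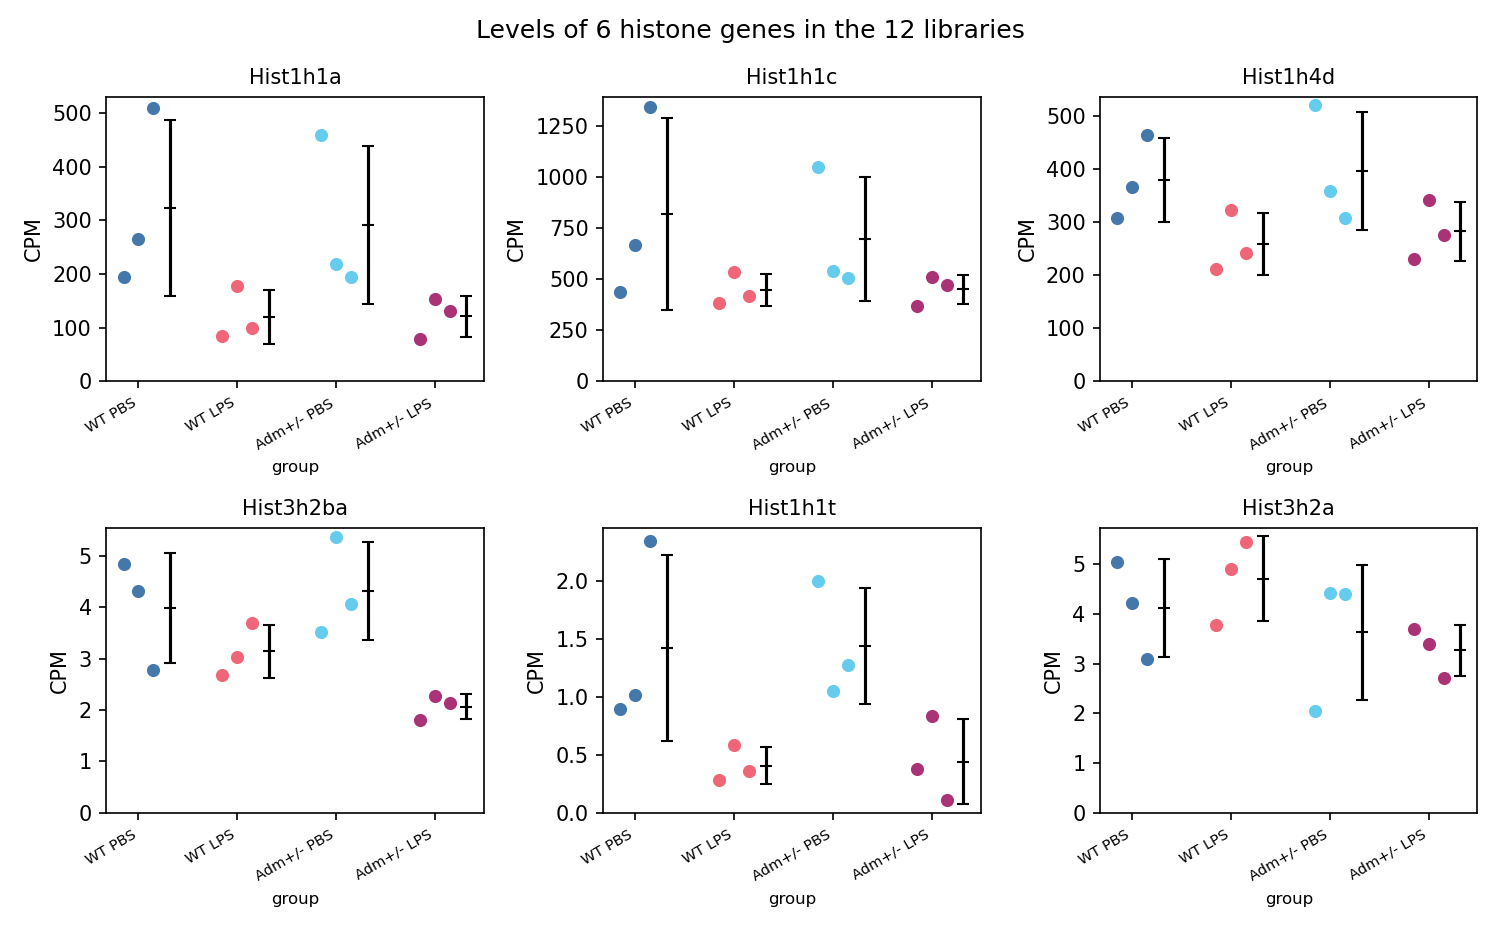
Points give the CPM of 6 histone genes in each library by group, and the bar beside each group is its mean and SD (n = 3). Hist1h1a, Hist1h1c and Hist1h1t have their highest PBS points in WT PBS replicate 5 and Adm+/- PBS replicate 6, whereas Hist3h2ba and Hist3h2a are lowest there among PBS libraries of their genotype.

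The count of calls turned on single libraries in both genotypes. WT LPS replicate 10 and Adm+/- LPS replicate 2 had the highest histone levels of the LPS libraries. Averaged over the 58 genes, log2 CPM was 0.07 below the mean of the 6 PBS libraries in WT LPS replicate 10 and 0.03 above it in Adm+/- LPS replicate 2. The 6 H1 genes were lower than that, by 0.50 and 0.44 against their own PBS mean, and in WT LPS replicate 10 their mean log2 CPM of 6.56 was below the PBS range of 6.59 to 7.73. The other LPS libraries were lower by 0.71 and 0.57 in WT replicates 9 and 11, and by 0.92 and 0.39 in Adm+/- replicates 1 and 12. Leaving out WT LPS replicate 10 raised the WT count from 1 to 10 (17.2%, all lower, where the same fit called 16.6% of all genes and 6.48% lower) and moved the median log2 fold change to -0.74. Leaving out Adm+/- LPS replicate 2 raised the Adm+/- count from 3 to 8 (13.8%, all lower, against 20.6% of all genes and 9.74% lower), with a median of -0.65 and all 58 genes below 0.

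The WT count was 5 without WT PBS replicate 3, 4 without Adm+/- LPS replicate 1 or 2, 2 without Adm+/- PBS replicate 6, and 0 without WT PBS replicate 5, WT LPS replicate 9 or WT LPS replicate 11. The Adm+/- count was 5 without WT PBS replicate 5 and 1 without WT PBS replicate 4, WT LPS replicate 11, Adm+/- PBS replicate 6 or 7, or Adm+/- LPS replicate 1 or 12. Where 1 was left it was Hist3h2ba. Without both libraries high in Gm26917, the counts were 0 in WT and 2 in Adm+/-, Hist2h2be and Hist3h2ba, where that fit called 15.3% and 24.4% of all genes (5.41% and 11.6% lower), while the medians stayed at -0.48 and -0.35. DESeq2 called 9 (15.5%) and 6 (10.3%) histone genes, all lower, against 8.78% and 13% of all tested genes called lower. In the other fits with 1 library left out, 14.2% to 19.1% of all genes were called in WT, or 9% without WT LPS replicate 9, and 18.8% to 27.9% in Adm+/-.

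Other genes of proliferation moved in the same libraries. These lists are described by counts and medians, to be read against all tested genes, of which 7.09% were called lower and 10.5% higher in WT, and 12.2% lower and 12.8% higher in Adm+/-. Of 40 DNA replication genes, 22 fell in WT and 28 in Adm+/- and none rose, with median log2 fold changes of -0.79 and -0.78. With 1 library left out the counts were 7 to 25 in WT, lowest without WT LPS replicate 9, and 14 to 31 in Adm+/-, with 14 without Adm+/- PBS replicate 6 or LPS replicate 1 and 18 without LPS replicate 12. The medians were -0.92 to -0.66 and -1.01 to -0.64. Mcm2, a subunit of the replicative helicase, fell by 1.08 on the log2 scale in WT (edgeR adjusted p = 0.00675) and by 1.18 in Adm+/- (0.00234). Rrm2, the small subunit of ribonucleotide reductase, fell by 0.88 in WT (edgeR adjusted p = 0.0387), a call lost without WT PBS replicate 5 (adjusted p = 0.051), and its -0.76 in Adm+/- was not past the threshold (0.0513). Of 24 mitosis genes, 7 fell in each genotype, with medians of -0.71 and -0.64, but the counts turned on single libraries. In WT the count was 17 without WT LPS replicate 10, 12 and 13 without Adm+/- LPS replicates 1 and 2, 4 without Adm+/- PBS replicate 7 or 8 or Adm+/- LPS replicate 12, and 1 without WT PBS replicate 4 or WT LPS replicate 9 or 11. In Adm+/- it was 18 without Adm+/- LPS replicate 2, 3 without Adm+/- PBS replicate 7, 1 without Adm+/- PBS replicate 6 or 8, and 0 without Adm+/- LPS replicate 1 or 12. The 7 in WT included Bub1b, a spindle checkpoint kinase, which fell by 0.69 in WT (edgeR adjusted p = 0.00747).

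The mean log2 CPM of the mitosis list was 5.44 in WT LPS replicate 10 and 5.57 in Adm+/- LPS replicate 2, against 5.53 to 5.86 in PBS libraries and 4.5 to 5.0 in the other 4 LPS libraries. These are also the LPS libraries with the highest mean over the 58 histone genes. The DNA replication list was at 4.55 and 4.64 in them, above the 4.06 to 4.36 of the other LPS libraries but below the 4.94 to 5.39 of all 6 PBS libraries. With the mean of this list as a covariate, the median log2 fold change of the histone genes turned to 0.41 in WT and 0.49 in Adm+/-. The list does not overlap between LPS and PBS libraries, so that this fit leaves little of the treatment contrast to estimate.

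**Figure D5:**
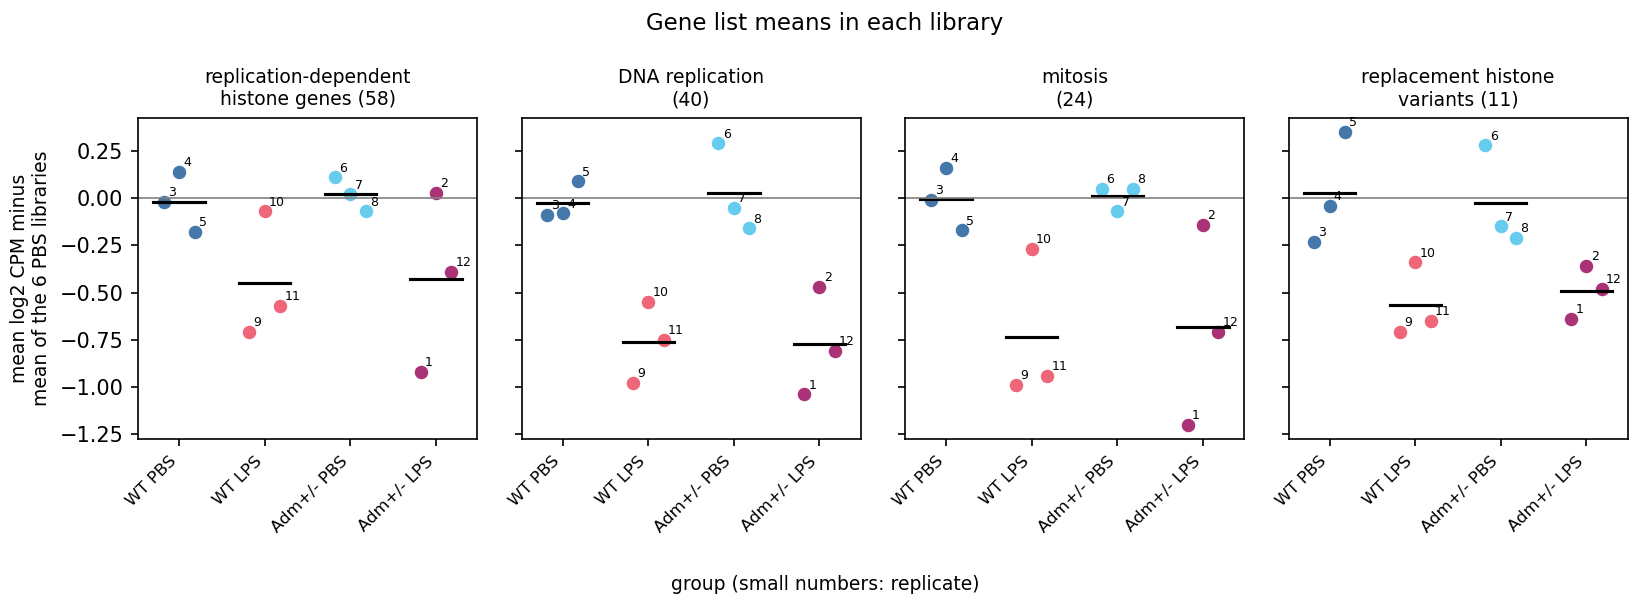
Points give, for each library, the mean log2 CPM of a gene list minus the mean of the 6 PBS libraries, by group, with replicate numbers beside the points and group means as lines. For the 58 histone genes, replicates 10 and 2 lie near 0, and for the DNA replication list every LPS library is at -0.47 or lower and every PBS library at -0.16 or higher.

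Replacement histone variants were split. Of 11, 5 fell in both genotypes: H1f0, H1fx, H2afv, H2afy2 and Cenpa, with list medians of -0.63 and -0.55. The WT median was -0.45 without WT PBS replicate 5, and without Adm+/- PBS replicate 6 the Adm+/- median was -0.29 and the calls of H1fx and Cenpa were lost (adjusted p = 0.0546 and 0.0667). H1fx, a linker histone variant, fell by 1.56 on the log2 scale in WT (edgeR adjusted p = 0.00553) and by 1.16 in Adm+/- (0.0145). H1f0, the linker histone typical of resting and differentiated cells, was at 221, 242 and 311 CPM in WT PBS and at 134, 146 and 157 CPM in WT LPS, and fell by 0.83 (edgeR adjusted p = 0.00361). In Adm+/- it fell by 0.74 (0.00362). Of the H3.3 genes, H3f3a had log2 fold changes of -0.06 in WT and -0.19 in Adm+/-, and H3f3b had -0.26 and 0.04, none past the threshold. Without WT PBS replicate 5 in WT and Adm+/- PBS replicate 6 in Adm+/-, H3f3a was at -0.17 and -0.18 and H3f3b at -0.03 and 0.22.

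Some of the histone chaperones that load new H3 and H4 onto DNA also fell, though the list medians were only -0.27 in WT, or -0.17 without WT PBS replicate 5, and -0.25 in Adm+/-. Of 19 chaperone genes, 4 fell in WT (Chaf1a, Chaf1b, Mms22l and Nasp) and 5 in Adm+/- (the same 4 and Asf1b), where Daxx, an H3.3 chaperone, rose. The call of Chaf1a in WT was lost without WT PBS replicate 5 (edgeR adjusted p = 0.0514), and those of Chaf1a, Asf1b and Daxx in Adm+/- without Adm+/- PBS replicate 6 (0.102, 0.139 and 0.0614). Chaf1b, a subunit of chromatin assembly factor 1, fell by 1.11 on the log2 scale in WT (edgeR adjusted p = 0.00789) and by 1.04 in Adm+/- (0.0069). Nasp, which stores soluble H3 and H4, fell by 0.59 (edgeR adjusted p = 0.00554) and 0.64 (0.00198).

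Few genes of the machinery that makes histone mRNA passed the threshold. None of 17 tested genes of histone mRNA transcription and 3′ processing passed in WT and 1, Ccne1, fell in Adm+/-, with medians of -0.03 and -0.10. The WT median was -0.12 without WT PBS replicate 5, and without Adm+/- PBS replicate 6 the Adm+/- median was -0.06 and the call of Ccne1 was lost (edgeR adjusted p = 0.147). Slbp was at 41.1, 35.6 and 29.0 CPM in WT PBS and 26.6, 28.6 and 26.4 CPM in WT LPS, with a log2 fold change of -0.37 (SE 0.15, edgeR adjusted p = 0.096). It was -0.50 without WT PBS replicate 5 (edgeR adjusted p = 0.0308), just past the threshold. In Adm+/- it was -0.50 (SE 0.15, edgeR adjusted p = 0.027), at the fold limit and not past it. Npat had 0.18 and 0.13, Casp8ap2 0.07 and -0.09, Lsm10 0.08 and -0.12 and Lsm11 -0.42 and -0.39, none past the threshold. No direction is read from the first 3. Without WT PBS replicate 5 in WT and Adm+/- PBS replicate 6 in Adm+/-, Npat was at -0.06 and -0.03, Casp8ap2 at -0.12 and -0.16, Lsm10 at -0.15 and -0.22 and Lsm11 at -0.21 and -0.24. Of 14 genes of CDK inhibitors and arrest, 2 rose and 1 fell in WT, and 4 rose and 2 fell in Adm+/-, counts too small to set apart from the shares of all genes. Cdkn1a, which encodes the p21 inhibitor, had log2 fold changes of 1.64 in WT (edgeR adjusted p = 0.000641) and 2.18 in Adm+/- (7.9e-05) and was among those that rose.

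Marker RNA of some cell types changed with the same treatment. In bulk lung, more cells and more marker RNA per cell cannot be told apart. All 11 tested neutrophil markers rose in both genotypes, and their mean log2 CPM was 1.61 to 3.75 in PBS and 6.36 to 6.87 in LPS libraries. Of 10 macrophage and monocyte markers, 8 rose in WT and 7 in Adm+/-, from a mean log2 CPM of 3.84 to 4.34 in PBS to 5.17 to 5.81 in LPS. Mature neutrophils do not divide, and the part of their RNA in the lower histone share was not tested. Skeletal muscle markers were at a mean log2 CPM of 5.31 to 7.08 in the 3 WT LPS libraries and 0.33 to 2.12 in the others, and the part of these RNAs in the WT values was not tested. Thymocyte markers, a possible source of dividing cells, were at 0.99 to 1.98, with 1 higher and 0 lower in WT and 2 lower in Adm+/- of 10 tested, from which nothing is read. Erythroid markers were at 3.78 to 5.63, with 1 of 11 higher in each genotype, or 0 in WT without WT PBS replicate 5 and in Adm+/- without Adm+/- PBS replicate 6, and of 5 tested B cell markers 0 passed in the fit with all libraries. The 12 markers of lung epithelium and endothelium were at 8.95 to 9.29 in all libraries, as the lung label implies.

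Genotype made no detectable difference to these genes. In PBS, Adm+/- against WT gave 0 calls among 58, as among all tested genes (0%), and 0 at an unadjusted p below 0.05 against 2.17% of all genes by edgeR, while limma-voom and DESeq2 also called 0. The median log2 fold change was 0.04 (-0.06 to 0.12 with 1 library left out), with single genes from -0.45 to 0.41, and 0 genes had groups without overlap, against 2.51% of all genes lower and 2.47% higher. In LPS, 0 of 58 were called against 2.05% of all tested genes, 1 had an unadjusted p below 0.05 against 14.3%, and the median was 0.11 with a range of -0.60 to 0.36. Below 0 were 16, against 50.8% of all genes. Both values turned on single libraries, so no direction is read from them. Without Adm+/- LPS replicate 2 the median was -0.15 with 55 below 0, and without WT LPS replicate 9 it was -0.04 with 38 below 0. Without WT LPS replicate 11 it was 0.02 with 25 below 0, and without WT LPS replicate 10 or Adm+/- LPS replicate 1 it was 0.31, with 7 and 4 below 0. The 1 gene was Hist3h2ba, at 2.68 to 3.70 CPM in WT LPS and 1.79 to 2.26 CPM in Adm+/- LPS, with a log2 fold change of -0.60 (SE 0.25, edgeR adjusted p = 0.285). Hist3h2ba, Hist3h2a and Hist2h2be were lower in every Adm+/- LPS library than in every WT LPS library (5.17%), against 12.4% of all genes.

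The difference in LPS response between the genotypes was tested directly as an interaction. It gave 0 calls of 58, against 0.145% of all tested genes, and 0 at an unadjusted p below 0.05 against 7.85%, and limma-voom and DESeq2 also called 0. The median was 0.07 and single genes ranged from -0.71 to 0.38. It turned on single libraries too. Leaving out Adm+/- LPS replicate 2 gave -0.19, leaving out WT LPS replicate 10 gave 0.31, and it was -0.07 without WT LPS replicate 9 and 0.29 without Adm+/- LPS replicate 1. Hist3h2ba had the lowest value, -0.71, with a 95% interval of -1.47 to 0.04 (edgeR adjusted p = 0.67). For Hist1h1a the interval was -1.17 to 1.5.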

How the data were processed

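Total RNA from 12 lungs was sequenced after ribosomal RNA depletion. The authors trimmed reads with Trim Galore, aligned them to mm10 with HISAT2 and made raw counts per gene with featureCounts. The annotation release, strand setting and handling of multi-mapped reads are not given in the sources used here. The deposited counts were used as they stand. Protein-coding genes passing edgeR's filterByExpr (15885) were TMM-scaled and fitted with edgeR 4.0.16 (R 4.3.3) by glmQLFit and glmQLFTest over all 4 groups, with Benjamini-Hochberg adjustment. Alternatives used limma-voom 3.58.1, DESeq2 1.42.0, other filters and scalings, and left-out libraries. The threshold was an adjusted p of 0.05 together with a log2 fold change of 0.5 in size. The fits were tested on simulated data. Members and lists were chosen with earlier results of these data known. Named were the 8 members most abundant per length, in each contrast the 8 with the smallest p and both extremes, 3 germ line members, Adm, 5 genes of histone mRNA making, and in each list the 3 most abundant and, per LPS contrast, the 3 with the smallest p. Genes named outside this rule were chosen after their values were seen. Shared windows and stem-loops came from Gencode transcripts, and promoters from RefSeq.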

Additional observations from a re-analysis of the deposited data

How the results depend on the processing

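No paired analysis was made, because the sample labels give no litter or pairing of the mice. In WT, where 1 histone gene was called, the count was 0 when tested against a fold threshold (glmTreat), 0 without both libraries high in Gm26917, 4 with GC content offsets, 5 with length offsets, 0 with the DNA replication covariate and 9 by DESeq2. It was 0 to 10 with 1 library left out. In Adm+/-, where 3 were called, the count was 0 by glmTreat, 1 with all annotated genes, 5 with only the groups compared, 1 (Hist2h4, higher) with the covariate and 6 by DESeq2, and 1 to 8 with 1 library left out. The share of all genes called moved as well: in WT from 17.6% to 6.3% by glmTreat, 15.3% without both libraries, 20.2% with GC content offsets, 17.9% with length offsets, 0.554% with the covariate and 20.9% by DESeq2. In Adm+/- it moved from 25.0% to 10.7% by glmTreat, 21.6% with all annotated genes, 29.2% with only the groups compared, 2.88% with the covariate and 27% by DESeq2. The histone counts are to be read against these shares. The cause of these changes was not tested. Median log2 fold changes of LPS against PBS kept their sign except with the covariate, at 0.41 in WT and 0.49 in Adm+/-. With 1 library left out they were -0.74 to -0.31 and -0.65 to -0.21, while those of Adm+/- against WT changed sign, at -0.06 to 0.12 in PBS, -0.15 to 0.31 in LPS and -0.19 to 0.31 for the interaction. Genotype contrasts and the interaction called 0 under each alternative run. Without the 3 most abundant genes the summed CPM was 3191 in WT PBS, 2102 in WT LPS, 3203 in Adm+/- PBS and 2236 in Adm+/- LPS.

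With the covariate, whose values do not overlap between treatments, the WT log2 fold changes turned to 0.38 for Hist1h1a, 0.47 for Hist1h1b, 0.43 for Hist1h1c, 0.07 for Hist1h1e, 0.12 for Hist1h1t, 0.21 for Hist1h2bc, 0.49 for Hist1h3a, 0.17 for Hist1h3d, 0.54 for Hist1h3e, 0.45 for Hist1h4d, 0.55 for Hist1h4f, 0.49 for Hist1h4h, 0.39 for Hist1h4k and -0.28 for Hist3h2a. Those in Adm+/- turned to 0.78 for Hist1h1a, 0.75 for Hist1h1b, 0.81 for Hist1h1c, 0.24 for Hist1h1t, 0.31 for Hist1h2bc, 0.79 for Hist1h3e, 0.62 for Hist1h4d, 0.71 for Hist1h4f, 0.47 for Hist1h4h, 0.69 for Hist1h4i, 0.63 for Hist1h4k and 0.19 for Hist4h4. Hist1h4m in Adm+/- (0.11) turned to -0.03 without Adm+/- PBS replicate 6, -0.21 without Adm+/- LPS replicate 2 and -0.02 without both high-Gm26917 libraries. Alternatives were tallied for Adm and part of the named histone genes only. In this tally 722 values kept their direction and call, 33 lost the call, 45 gained it and 29 reversed. Genes of the other lists were not counted, and some of them, such as Npat, also changed sign when a library was left out.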

Other observations

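Pseudogenes of the histone clusters lie outside the comparisons above. Hist1h2aj, an H2A pseudogene of the Hist1 cluster, had 71 counts in WT PBS replicate 3, 66 in Adm+/- PBS replicate 6 and 17 in Adm+/- PBS replicate 7, and 0 to 5 in the other libraries, which include all 6 LPS libraries and 3 PBS libraries. Hist3h2bb-ps, an H2B pseudogene named for the Hist3 cluster, had 12 to 81 counts.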
